A study of Rattus norvegicus with 52 samples.

Results

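The genes of translation initiation were followed through sorted rat mammary cells as all rows of the count tables whose symbol begins with Eif and a digit from 1 to 6, which gave 52 of 17356 gene rows. The rule used names only, and it also took in the eIF4E-binding proteins (Eif4ebp) and the kinases of eIF2 (Eif2ak). By role, 5 members act in start codon recognition, 6 belong to eIF2 or stand in for it, 4 are eIF2 kinases, 5 are subunits of eIF2B, 13 are subunits of eIF3, 10 belong to the cap-binding complex eIF4F and its helpers, 4 inhibit eIF4E, and 5 act in subunit joining or later. No row carried the symbol Eif4g1, and Eif1a and Eif1ax stood in separate rows. All members were measured in each of the 48 RNA-seq libraries.

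Every rat of the knockout experiments was a virgin female listed as ACI, either Cdkn1b+/+ or Cdkn1b-/-. The knockout was present in the whole animal from the germline. It came as 2 CRISPR deletions in the first coding exon, made in Sprague-Dawley zygotes and bred onto ACI, and the labels do not say which deletion a library carries. The paper sorted cells from early and late backcross generations. The labels do not give the generation, so some rats may have carried a partly Sprague-Dawley background. At 9 weeks, 4 populations were sorted from each genotype with 2 libraries each (16 in all), namely basal cells (Cd24+ Cd29HIGH), mature luminal cells (Cd24+ Cd29LOW, negative for Cd49b and for the lectin PNA), and luminal progenitors (LP) that were Cd49b+ or PNA+, which were pooled as LP with 4 libraries per genotype. At 4 weeks there were 3 basal and 3 luminal Cdkn1b+/+ libraries and 2 basal and 3 luminal Cdkn1b-/- libraries (11 in all). At 6 weeks there were 3 basal and 2 luminal Cdkn1b+/+ libraries and 2 of each Cdkn1b-/- (9 in all), and their titles carry the number 5.9, read here as the age in weeks, except those of Cdkn1b-/- basal 1 and luminal 1, which carry 5.3. Cdkn1b+/+ library 1 of each cell type at 4 weeks carries 3.4 and the other 4-week titles 4, so that age differed somewhat within the genotype contrasts of both sets. In a further experiment without a knockout, basal and luminal cells of ACI rats (2 control animals and 2 given estradiol, E2) and of BN rats (1 control and 1 E2 sample, each title naming a pair of animals) gave 12 libraries.

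Initiation begins when eIF2 carries the initiator tRNA to the small ribosomal subunit, which eIF1, eIF1A and the large scaffold eIF3 hold open for scanning, while eIF4F binds the cap of the mRNA through eIF4E, unwinds it through eIF4A and joins both through eIF4G. Cells turn the process down through kinases that phosphorylate eIF2, so that the exchange factor eIF2B can no longer reload it, and through eIF4E-binding proteins, which hold eIF4E until mTORC1 phosphorylates them. Mammary epithelium depends on this machinery for growth in puberty and for milk protein synthesis in lactation.

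Gene counts ran from 7985619 in the shallowest library to 33859550 in the deepest, and the 6-week libraries were the shallowest set (7985619 to 16390460). Each library spent between 0.82% and 2.18% of its gene counts on members. The basal markers (Krt5, Krt14, Acta2 and others) summed to 12600 to 19070 CPM (counts scaled to library size with TMM) in 9-week basal cells and 169 to 398 in mature luminal cells. Hormone-sensing markers (Esr1, Pgr, Foxa1, Prlr, Cited1) summed to 120 to 421 CPM in LP and only 44.8 to 187 in the mature luminal gate, so this gate was not the one richest in them. Cdkn1b lay at 1.8 to 4.61 CPM in 9-week Cdkn1b-/- libraries and 6.15 to 15.7 in Cdkn1b+/+ libraries. At 6 weeks the library labelled Cdkn1b+/+ basal 3 had 3.28 CPM, below both Cdkn1b-/- basal libraries (10.5 and 12.2), and the library labelled Cdkn1b-/- luminal 2 had 38.0, within the Cdkn1b+/+ range, as did the library labelled Cdkn1b-/- luminal 1 at 4 weeks (17.4). A small deletion can leave a transcript, so these counts check the labels only in part. Those 2 libraries of 6 weeks had the lowest median rank correlations with the libraries of their lineage (0.793 and 0.687), as did ACI E2 basal 1 and luminal 1 in the E2 experiment (0.756 and 0.696).

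The map of log2 fold changes shows all members in 9 of the comparisons. Over 20 comparisons of populations, genotypes, ages, treatments and strains, 35 members passed an adjusted p of 0.05 in at least 1, and 17 in none. By edgeR's test most calls separated cell populations, few separated genotypes, and none came from E2 or strain. All genes followed the same pattern. Between populations 0% (PNA+ against Cd49b+ LP) to 38.7% of all genes were called, between genotypes 0% to 3.4%, and between ages 1.5% to 10.5%. For E2 and strain it was 0%. How many of all genes were called in at least 1 comparison was not counted.

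**Figure D1:**
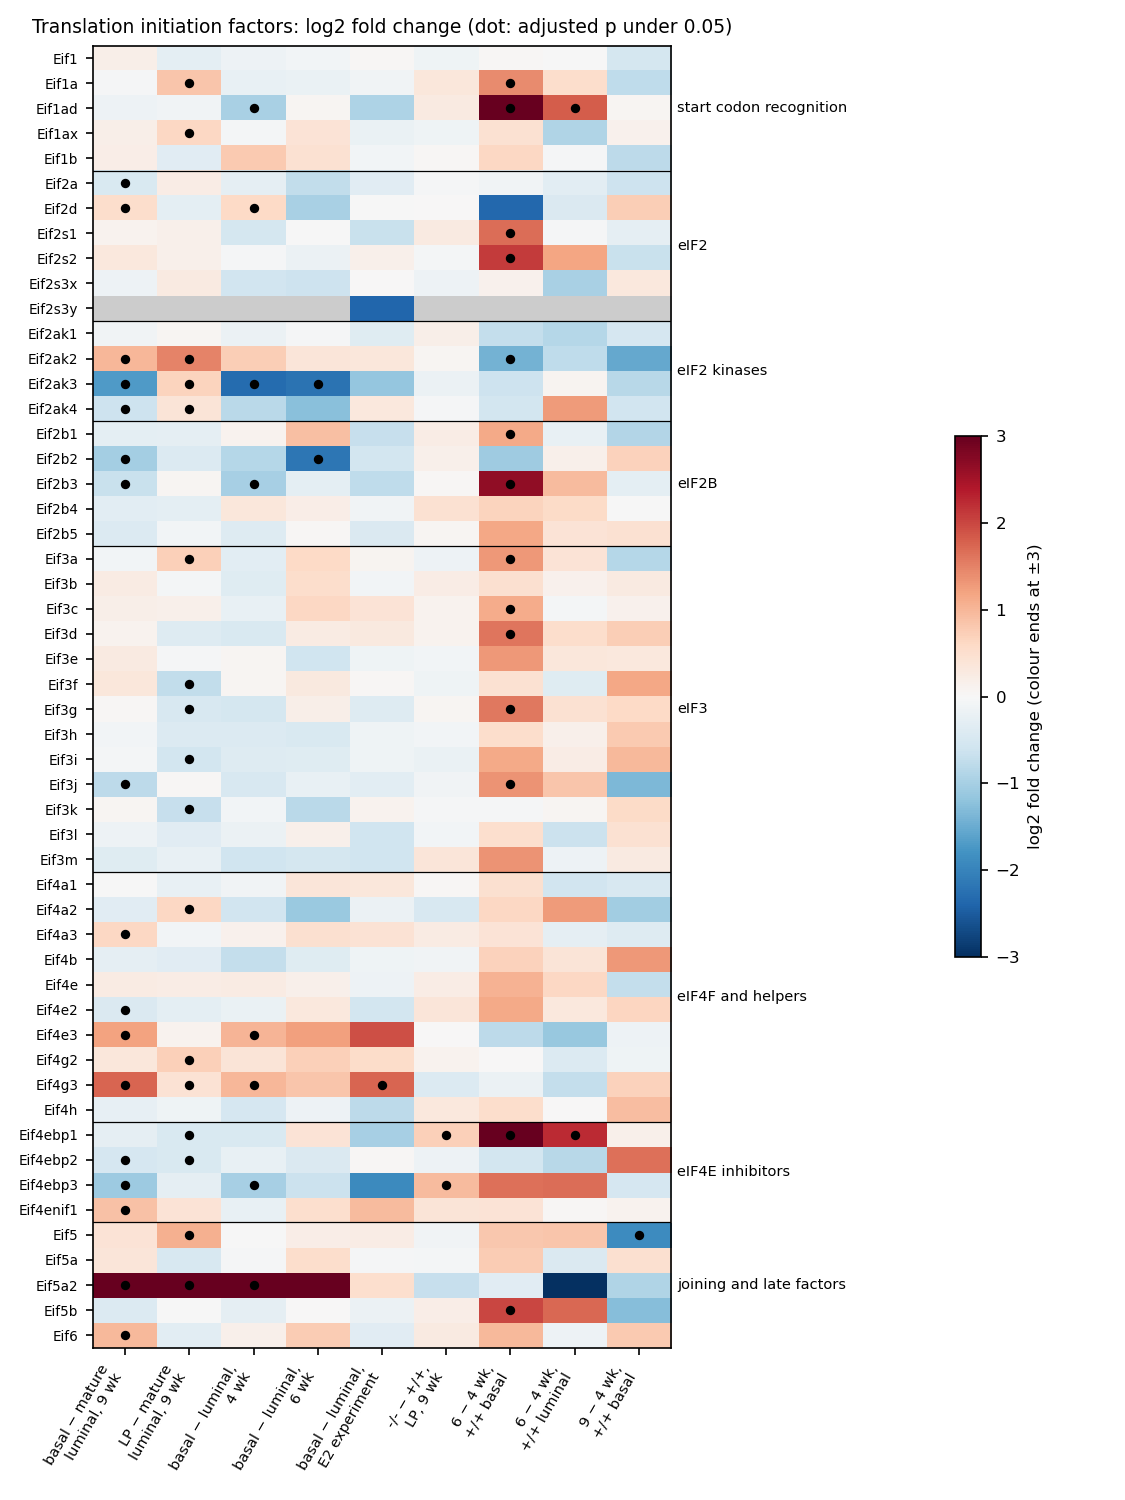
log2 fold change of each member (rows, grouped by role) in 9 comparisons (columns), red for higher in the group named first and blue for lower, with a dot where the adjusted p was under 0.05 and grey where the gene was not tested. The column for 6 minus 4 weeks in Cdkn1b+/+ basal cells holds 13 red dots and 1 blue dot, and Eif5a2 has red dots for basal and for LP against mature luminal cells at 9 weeks and for basal against luminal cells at 4 weeks.

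Between basal and mature luminal cells at 9 weeks, 8 members were higher and 9 lower in basal cells. That is 33.3% of the 51 members tested, beside 38.7% of all 12809 genes, and the median log2 fold change was -0.05 both in members and in all genes. The members that rose in basal cells included alternative forms of the cap-binding complex (Eif4g3, Eif4e3) and the second eIF5A gene (Eif5a2), and those that fell included 2 eIF2 kinases, 2 subunits of eIF2B and 2 eIF4E-binding proteins. With libraries of one genotype and number treated as a replicate block, 25 members were called (11 higher and 14 lower), beside 54.1% of all genes. For these sorted bulk samples, fewer cells of a type and less RNA per cell cannot be told apart. Nothing in the labels says that libraries of a 9-week group came from separate animals, so the p-values measure the spread between these libraries.

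Eif5a2, a tissue-restricted paralogue of the hypusinated factor eIF5A, showed the largest difference. Its level was 8.56 and 7.77 CPM in Cdkn1b+/+ basal libraries and 5.16 and 4.29 in Cdkn1b-/- basal libraries, against 0.674, 0.255, 0.204 and 0.558 in the mature luminal libraries. LP lay between them, from 1.46 to 5.89 CPM. The mature luminal values rested on 4 to 15 counts per library. No basal library overlapped a mature luminal library, and the log2 fold change was 3.87 (SE 0.49, adjusted p = 5.66e-05). The promoter of Eif5a2 (RefSeq, GRCr8, the 250 bases before the start site) holds a pair of E-boxes, the CACGTG hexamer read by basic helix-loop-helix factors such as Myc and Usf. They are shown because Eif5a2 separated the populations most, with the hexamer in capitals and on the strand of the gene, starting 196 and 171 bases before the start site.
Eif5a2 first E-box, chr2:113657626-113657655, plus strand: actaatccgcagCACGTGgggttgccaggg
Eif5a2 second E-box, chr2:113657651-113657680, plus strand: cagggcgagcttCACGTGactgggcgggac
An E-box stood in this window in 7 of 47 members with a promoter sequence (14.9%), which were Eif1b, Eif3b, Eif3f, Eif4e, Eif4h, Eif5a and Eif5a2, and in 5.59% of 33469 rat promoters. Of those 7 members, only Eif5a2 was called between basal and mature luminal cells, and a match of these letters is not a binding site.

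Among the eIF4F genes, Eif4g3 codes for a second form of the scaffold eIF4G. Its level was 134, 117, 114 and 93.0 CPM in the 4 basal libraries and between 31.0 and 38.1 in the mature luminal ones, so that the groups lay far apart. The log2 fold change was 1.75 (SE 0.13, adjusted p = 2.29e-06). Eif4e3, an atypical cap-binding protein, was at 38.7 to 65.6 CPM in basal libraries and 19.5 to 25.9 in mature luminal libraries, again without overlap (log2 fold change 1.21, SE 0.22, adjusted p = 0.000747). Eif4a3, the helicase that sits in the exon junction complex, rose by 0.62 (SE 0.12, adjusted p = 0.001), and Eif4enif1, which carries eIF4E into the nucleus, by 0.87 (SE 0.16, adjusted p = 0.00096). Eif6, which keeps the large subunit from joining too early, stood at 502 to 880 CPM in basal libraries and 301 to 380 in mature luminal libraries (log2 fold change 0.96, SE 0.14, adjusted p = 0.000138).

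The eIF2 kinases moved in both directions. Eif2ak3 codes for PERK, the kinase that answers unfolded protein in the endoplasmic reticulum. It was at 12.5, 17.7, 10.7 and 7.32 CPM in the basal libraries and at 36.6, 32.3, 41.0 and 42.9 in the mature luminal ones, and every basal library lay below every mature luminal library. The log2 fold change was -1.70 (SE 0.18, adjusted p = 1.79e-05). Eif2ak4 (GCN2, which senses uncharged tRNA) was at 7.27 to 11.3 CPM against 12.9 to 16.1 (log2 fold change -0.63, SE 0.16, adjusted p = 0.00602). Eif2ak2 (PKR, which senses double-stranded RNA) went the other way, from 18.7 to 36.6 CPM in basal libraries against 11.5 to 18.2 (log2 fold change 1.01, SE 0.33, adjusted p = 0.0285). Eif2ak1, the kinase that responds to haem, was not called.

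All 5 eIF2B subunits had a negative log2 fold change in basal cells, with a median of -0.41, and 2 of them were called. Eif2b2, the beta subunit, was at 31.2 to 45.4 CPM in basal libraries and 58.6 to 98.0 in mature luminal libraries, which did not overlap (log2 fold change -1.01, SE 0.25, adjusted p = 0.00549). Eif2b3, the gamma subunit, fell by 0.66 (SE 0.21, adjusted p = 0.0225) with overlapping groups. Of eIF3, only the loosely bound subunit gene Eif3j was called, at 32.3 to 45.9 CPM in basal libraries and 51.5 to 90.7 in mature luminal libraries (log2 fold change -0.79, SE 0.15, adjusted p = 0.00117). The eIF4E-binding protein genes Eif4ebp3 (log2 fold change -1.08, SE 0.24, adjusted p = 0.00267) and Eif4ebp2 (-0.51, SE 0.17, adjusted p = 0.0299) were lower in basal cells, while Eif4ebp1 gave -0.27 (adjusted p = 0.235). The other calls were Eif2d, higher by 0.53, and Eif2a and Eif4e2, with log2 fold changes of -0.46 and -0.45. Within the genotypes of the same fit 9 members were called in Cdkn1b+/+ libraries, beside 20.9% of all genes, and 12 in Cdkn1b-/- libraries, beside 23.7%. When each library was left out in turn, Eif4ebp2 kept its call in 1 of 8 fits, Eif2ak2 in 3, Eif2b3 in 4, Eif4e2 in 5, Eif2a in 6 and Eif2d in 7, and the other called members in all 8.

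**Figure D2:**
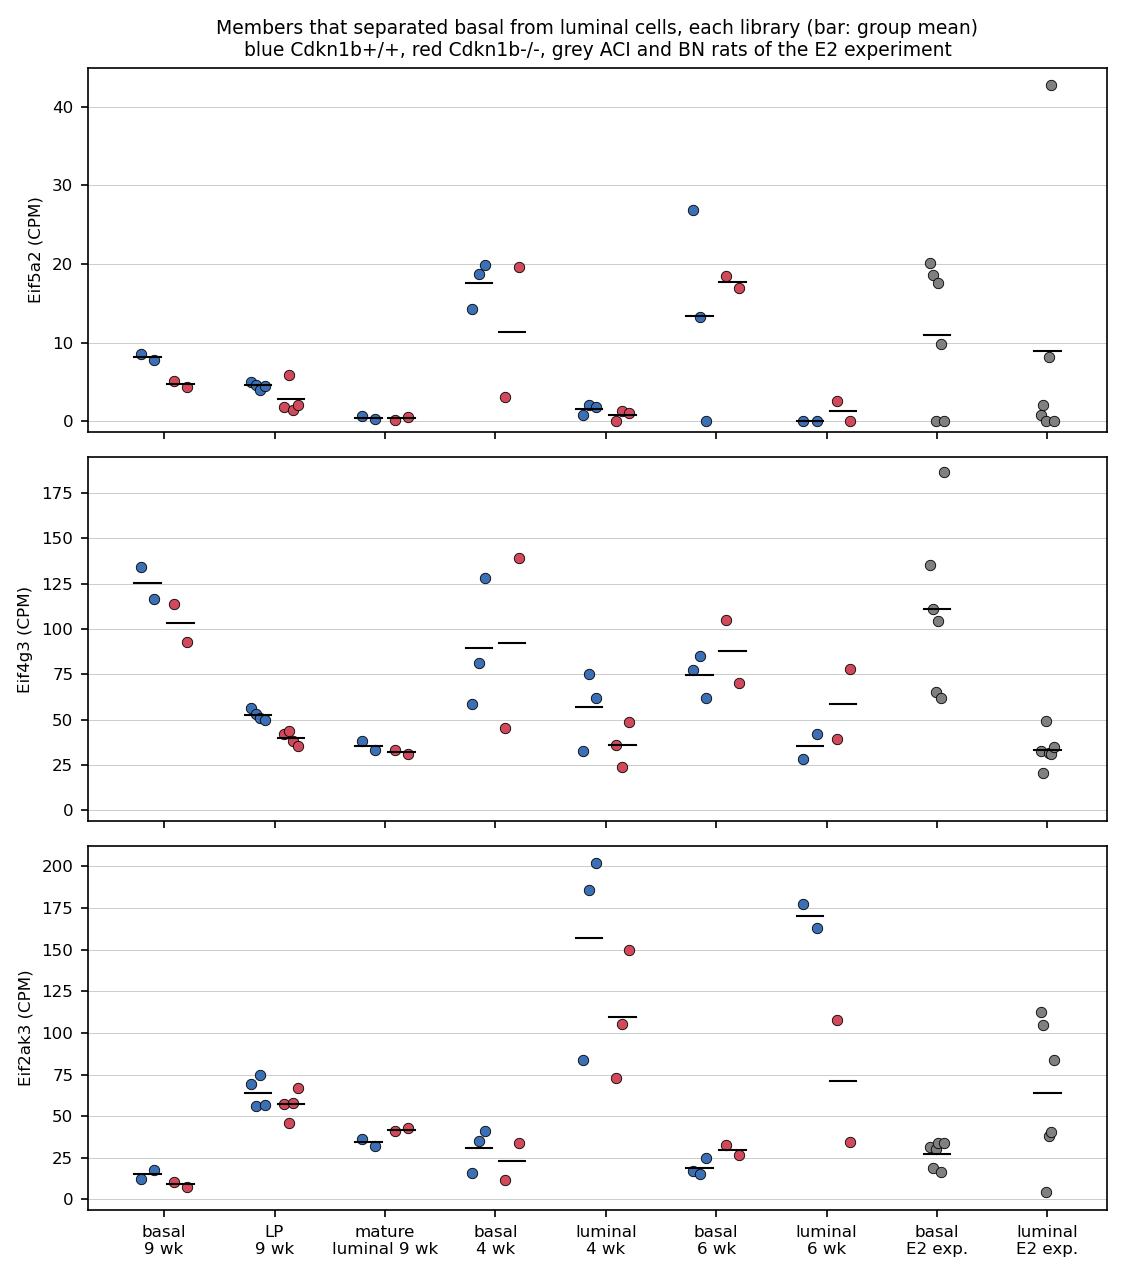
Level of Eif5a2, Eif4g3 and Eif2ak3 (CPM, normalised within each experiment, so that levels are compared only within one) in every library, by population and experiment. Blue points are Cdkn1b+/+ libraries, red points Cdkn1b-/- libraries and grey points ACI and BN rats of the E2 experiment, and bars are group means. Basal libraries lie above mature luminal libraries at 9 weeks for Eif5a2 (4.29 to 8.56 against 0.204 to 0.674) and below them for Eif2ak3 (7.32 to 17.7 against 32.3 to 42.9).

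Between LP and mature luminal cells, 11 members were higher and 6 lower in LP, 33.3% of members beside 23.4% of all genes, with a median of -0.08 in members and -0.07 in all genes. The members that fell were mostly subunits of eIF3 and eIF4E-binding proteins, and those that rose were spread over start codon factors, kinases, eIF4G forms and eIF5. With RLE in place of TMM scaling the calls divided into 10 higher and 9 lower, beside 24.4% of all genes. With the replicate block there were 30 (13 higher and 17 lower), beside 45.8% of all genes. Without Cdkn1b-/- mature luminal library 2 only 9 members were called, and without Cdkn1b+/+ mature luminal library 2 there were 11. Within the genotypes, 11 members (8 higher and 3 lower) and 11% of all genes were called in Cdkn1b+/+ libraries, and no member and 0% of all genes in Cdkn1b-/- libraries. LP and mature luminal cells also differed in markers, since 3 of 5 hormone-sensing markers were higher and 5 of 8 luminal markers lower in LP, and 5 of 6 endothelial markers were higher (summed levels of 116 to 787 CPM in LP and 74.3 to 90.8 in mature luminal cells), and their part in these differences was not tested.

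Of the 13 eIF3 subunits, 4 were lower in LP and 1 was higher, 3 had a positive log2 fold change, and the median was -0.33. The subunits Eif3f, Eif3g, Eif3i and Eif3k belong to different parts of the complex. Eif3k was at 36.9, 30.5, 43.7 and 30.6 CPM in Cdkn1b+/+ LP and 33.8, 27.8, 45.3 and 32.0 in Cdkn1b-/- LP, against 50.9 to 61.4 in mature luminal libraries. All LP libraries lay below all mature luminal ones (log2 fold change -0.68, SE 0.15, adjusted p = 0.00641). Eif3f ranged from 77.4 to 138 CPM in LP and 152 to 257 in mature luminal libraries (log2 fold change -0.75, SE 0.18, adjusted p = 0.0114), and Eif3g from 165 to 213 against 243 to 293 (-0.49, SE 0.12, adjusted p = 0.01). Eif3i overlapped, at 62.3 to 107 against 98.8 to 137 CPM (-0.56, SE 0.15, adjusted p = 0.0178). Eif3a, the largest scaffold subunit, went the opposite way, at 195 to 308 CPM in LP and 145 to 176 in mature luminal libraries (0.70, SE 0.17, adjusted p = 0.01). The subunits of this complex thus did not move together. Treating the numbers as a replicate block added Eif3d (-0.38), Eif3h (-0.41) and Eif3l (-0.34) to the lower group, with adjusted p = 0.00369, 0.00965 and 0.0155. Eif3f is also a member with an E-box in its promoter, printed for comparison with those of Eif5a2.
Eif3f E-box, 59 bases before the start site, chr1:172368991-172369020, plus strand: caagatatgggtCACGTGgtacaaatttag
The hexamer is the same in both genes, and its part in their levels was not tested.

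**Figure D3:**
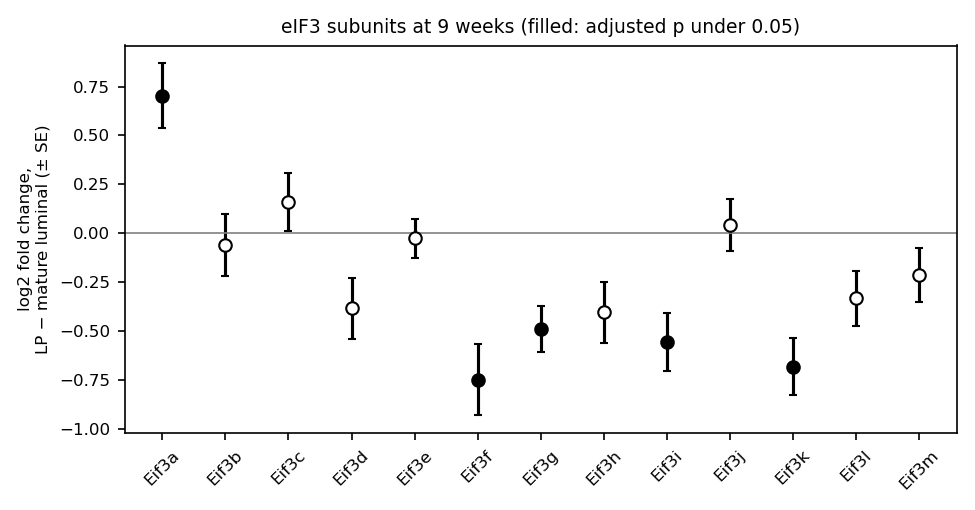
log2 fold change, LP minus mature luminal cells at 9 weeks, for the 13 eIF3 subunits (points, with bars of 1 standard error), filled where the adjusted p was under 0.05. Eif3a lies at 0.70 and Eif3f, Eif3g, Eif3i and Eif3k between -0.75 and -0.49.

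Eif5a2 was higher in LP as well, at 4.03 to 5.04 CPM in Cdkn1b+/+ LP and 1.46 to 5.89 in Cdkn1b-/- LP against less than 1 CPM in all mature luminal libraries (log2 fold change 3.07, SE 0.46, adjusted p = 0.00328). Eif2ak2 ranged from 15.98 to 58.3 CPM in LP and from 11.5 to 18.2 in mature luminal libraries, with only PNA+ Cdkn1b-/- library 1 inside the mature luminal range (log2 fold change 1.49, SE 0.31, adjusted p = 0.00561). Eif4g2 codes for a relative of eIF4G that works without the cap-binding protein. It was at 618 to 902 CPM in LP and 407 to 572 in mature luminal libraries (0.71, SE 0.16, adjusted p = 0.00708). The start codon factor gene Eif1a was at 172 to 263 CPM against 87.6 to 150 (0.84, SE 0.19, adjusted p = 0.00728), and its near relative Eif1ax was higher by 0.61 (SE 0.19, adjusted p = 0.0341). Eif5, which makes eIF2 hydrolyse its GTP at the start codon, was at 131 to 306 CPM against 83.0 to 133 (1.07, SE 0.24, adjusted p = 0.00776). Of the kinases, Eif2ak3 (0.67, SE 0.16, adjusted p = 0.0102) and Eif2ak4 (0.40, SE 0.14, adjusted p = 0.0499) were also higher in LP than in mature luminal cells, although Eif2ak4 kept its call in only 1 of 12 fits that each left out a library. Eif4ebp2 and Eif4ebp1 were lower in LP, with log2 fold changes of -0.45 each (adjusted p = 0.0386 and 0.0403), calls that were kept in 2 and 4 of those 12 fits. Eif1ax kept its call in 5, and the other called members in 10 or more. The remaining calls were Eif4a2, a second helicase gene (0.63), and Eif4g3 (0.43).

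Between PNA+ and Cd49b+ LP no member was called by edgeR, beside 0% of all genes. At an unadjusted p under 0.05 stood no member, beside 358 of 11725 genes. DESeq2 called no member and 0.35% of all genes.

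The genes around initiation behaved unevenly in the same comparisons. Of 7 genes listed by their Eef symbols, not all of them elongation factors, 4 were lower in LP than in mature luminal cells (Eef2, -0.74, Eef1g, -0.73, Eef1b2, -0.60, and Eef1d, -0.57). None of the 7 was positive, with a median of -0.57, while 2 were higher in basal than in mature luminal cells. Of 8 genes listed for the phosphorylated eIF2 arm, 4 were higher in basal cells, namely the transcription factor gene Atf4 (0.75), its target Ddit3 (1.06, called by edgeR with adjusted p = 0.00103), Trib3 (1.37) and the glutathione-degrading enzyme gene Chac1 (2.01). In the same contrast asparagine synthetase (Asns, -0.77) and the adaptor gene Nck1 (-1.08) were lower. Of 11 genes listed around the mTORC1 arm, Pdcd4, an inhibitor of eIF4A, was lower in basal cells (-1.52, SE 0.25, adjusted p = 0.000324), as were Tsc1 and Mknk2, and Rheb was higher. Of 11 tested genes in a mixed list of cap, tail, recycling and other partners, 3 were higher in LP (Ddx3x, Abce1, Etf1) and 2 lower (Pabpc4, Dohh). None was called between basal and mature luminal cells.

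At 4 weeks, 4 members were higher and 4 lower in basal than in luminal cells, 15.7% of members beside 35.1% of all genes, and the members' median was -0.22 against -0.01 in all genes. With each animal as a replicate block there were 18 (6 higher and 12 lower), beside 43% of all genes. Leaving out Cdkn1b+/+ luminal library 3 left 4, and leaving out luminal library 1 or basal library 2 or 3 of that genotype left 5 each. Eif2ak3 was at 16.1, 35.1 and 41.3 CPM in Cdkn1b+/+ basal libraries and 11.7 and 34.1 in Cdkn1b-/- basal libraries, against 72.9 to 202 in the 6 luminal libraries, without overlap (log2 fold change -2.30, SE 0.40, adjusted p = 0.000548). Eif5a2 was at 14.3, 18.7 and 19.9 CPM in Cdkn1b+/+ basal libraries and 3.04 and 19.6 in Cdkn1b-/- basal libraries, and at most 2.08 in luminal libraries (3.65, SE 0.64, adjusted p = 0.000611). Eif2b3 was at 24.7 to 45.9 CPM in basal libraries and 55.1 to 79.3 in luminal libraries (-0.99, SE 0.23, adjusted p = 0.00446). The groups of all 3 genes stood apart, with Cdkn1b-/- basal library 1 the lowest basal library for Eif5a2 and the lowest for Eif2ak3.

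Of the other members called at 4 weeks, Eif1ad, a relative of eIF1A, was lower in basal cells (-0.97, SE 0.28, adjusted p = 0.0154). Eif4ebp3 was lower (-1.01, adjusted p = 0.0275), at 2.26 to 4.44 CPM against 4.32 to 9.40, and Eif4e3 higher (1.01, adjusted p = 0.0224), at 39.7 to 101 against 23.5 to 49.8, and both overlapped. Eif2d, which can place the initiator tRNA without eIF2, was at 57.7 to 67.7 CPM in basal libraries and 33.2 to 51.7 in luminal libraries (0.60, SE 0.20, adjusted p = 0.0348). Eif4g3 was at 58.6, 81.4 and 128 CPM in Cdkn1b+/+ basal and 45.2 and 139 in Cdkn1b-/- basal libraries, and at 24.1 to 75.4 in luminal libraries, which overlapped (1.00, SE 0.35, adjusted p = 0.0423). Of the 11 fits that each left out a library, Eif2d kept its call in 2, Eif4g3 in 4, Eif4ebp3 in 5 and Eif4e3 in 7, and the other called members in all. The luminal gate at this age was not divided into LP and mature cells, so these values and those of 9 weeks answer different contrasts.

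At 6 weeks 2 members were lower in basal than in luminal cells, 3.92% of members beside 5.65% of all genes. Eif2ak3 was at 16.96, 15.3 and 24.6 CPM in Cdkn1b+/+ basal and 33.0 and 26.6 in Cdkn1b-/- basal libraries, against 177 and 163 in Cdkn1b+/+ luminal and 108 and 34.7 in Cdkn1b-/- luminal libraries (-2.21, SE 0.42, adjusted p = 0.016). Eif2b2 was at 11.8, 11.7, 14.02, 26.3 and 23.7 CPM in basal libraries and 70.4, 61.5, 63.8 and 125 in luminal libraries (-2.16, SE 0.40, adjusted p = 0.014). Neither gene overlapped, and the smallest gap for Eif2ak3 was to the library labelled Cdkn1b-/- luminal 2. A fit with animal as a replicate block called 4.66% of all genes. With animal as a replicate block 1 member was called, and without the 2 libraries of lowest rank correlation 5 were (3 higher and 2 lower), beside 14.9% of all genes. Single libraries decided these calls too, since none passed without Cdkn1b+/+ luminal library 1 or either Cdkn1b-/- basal library, 1 passed without Cdkn1b+/+ luminal library 2, and 5 without Cdkn1b-/- luminal library 1.

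In the E2 experiment Eif4g3 was the 1 member of 52 called between basal and luminal cells, 1.92% of members beside 1.66% of all genes. It was at 136 and 111 CPM in ACI control basal libraries, 65.5 and 104 after E2, and 62.0 and 187 in BN control and E2 basal libraries, against 20.7 to 49.2 in the 6 luminal libraries. Every basal library was above every luminal library (1.74, SE 0.37, adjusted p = 0.0365). Eif4e3 missed the threshold (1.94, SE 0.46, adjusted p = 0.06). Eif5a2, called at 9 and 4 weeks, gave only 0.50 here (SE 2.16, adjusted p = 0.955). It was at 0 to 20.1 CPM in basal and 0 to 42.8 in luminal libraries, with the BN control luminal library the highest. With animal as a replicate block no member was called, beside 2.2% of all genes. The call of Eif4g3 was also lost in 10 of the 12 leave-one-out fits, while omitting ACI E2 basal 1 left 1 member called and omitting ACI E2 luminal 1 gave 2. The basal markers of ACI E2 basal 1 summed to 1879 CPM and those of the other ACI E2 basal library to 11630.

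The next question was whether loss of p27, the cyclin-dependent kinase inhibitor encoded by Cdkn1b, came with changes in these genes. At 9 weeks 2 members were higher and none lower in Cdkn1b-/- than in Cdkn1b+/+ LP, 3.92% of members beside 3.4% of all genes, and the median log2 fold change was 0.03 in members and in all genes. Both code for proteins that hold eIF4E away from eIF4G. Eif4ebp1 was at 81.8 and 95.5 CPM in Cdkn1b-/- Cd49b+ libraries and 108 and 116 in Cdkn1b-/- PNA+ libraries, against 60.7, 56.2, 71.7 and 57.9 in the corresponding Cdkn1b+/+ libraries. The means were 100.4 ± 15.1 and 61.6 ± 6.99 (SD, n = 4 libraries each, 2 fractions of 2 numbers). The groups did not overlap, and the log2 fold change was 0.70 (SE 0.17, adjusted p = 0.0429). Eif4ebp3 was at 5.37, 3.49, 6.21 and 5.87 CPM in Cdkn1b-/- LP and 2.41, 2.52, 2.83 and 3.01 in Cdkn1b+/+ LP (5.24 ± 1.21 and 2.69 ± 0.28, SD, n = 4 each), again without overlap (0.96, SE 0.23, adjusted p = 0.0392). Of the other inhibitors, Eif4enif1 and Eif4ebp2 were not called. In LP 9 of 51 members had groups without overlap, a share not counted over all genes.

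These 2 calls sat close to the threshold. They also counted Cd49b+ and PNA+ libraries of one number as separate, although the residuals of such pairs correlated (r = 0.629 in Cdkn1b-/- and 0.803 in Cdkn1b+/+). The adjusted p ran from 0.0324 to 0.131 for Eif4ebp1 and from 0.00934 to 0.117 for Eif4ebp3 when each LP library was left out in turn, and the calls were lost in 6 and 7 of 8 such fits. Both survived only without Cdkn1b-/- Cd49b+ library 2, and Eif4ebp1 also without Cdkn1b-/- Cd49b+ library 1, while the fold changes stayed between 0.63 and 0.79 and between 0.87 and 1.11. Summing PNA+ and Cd49b+ libraries of one number, which leaves 2 samples per genotype, gave 0.66 (adjusted p = 0.713) and 0.92 (adjusted p = 0.621), beside 0.0392% of all genes called. Limma voom with the genotype and number as a random replicate block gave 0.70 (adjusted p = 0.25) and 0.90 (adjusted p = 0.339), beside 0.656% of all genes. The hormone-sensing markers were lower in Cdkn1b-/- LP, with 3 of 5 called (Foxa1, Prlr and Cited1), 0 of 5 positive, none at 0, and summed levels of 120 to 156 CPM against 286 to 421, and their part in the difference of the inhibitors was not tested.

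**Figure D4:**
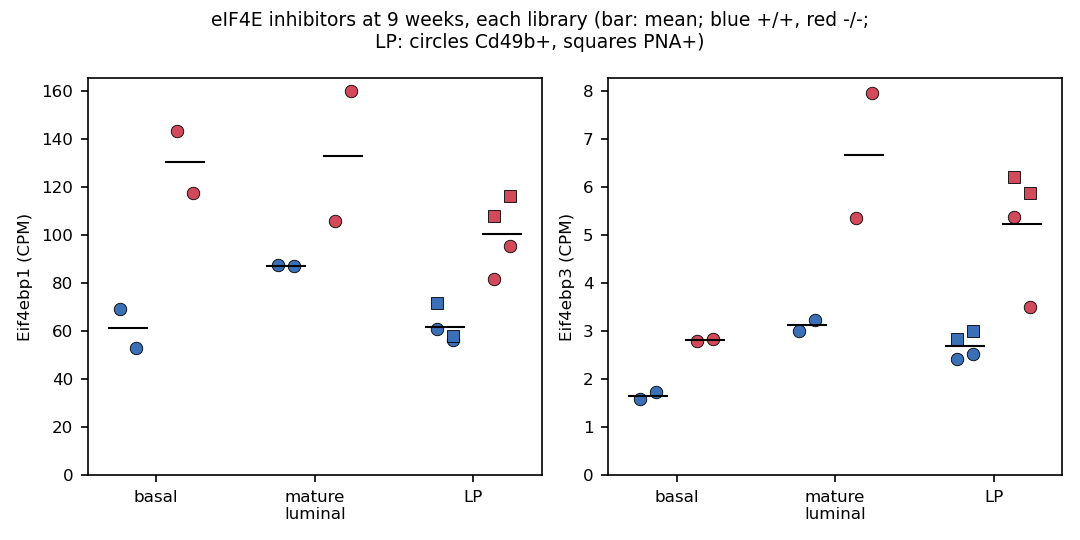
Level of Eif4ebp1 and Eif4ebp3 (CPM) in each 9-week library by population, blue for Cdkn1b+/+ and red for Cdkn1b-/-, with bars for group means and, in LP, circles for Cd49b+ and squares for PNA+. In LP the Cdkn1b-/- libraries sit between 81.8 and 116 CPM for Eif4ebp1, above all Cdkn1b+/+ libraries (56.2 to 71.7).

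Both genes also lay higher in the Cdkn1b-/- libraries of the other 9-week populations, without a call. In basal cells Eif4ebp1 was at 143 and 117 CPM against 69.4 and 52.8 (log2 fold change 1.09, SE 0.25, adjusted p = 0.199), and in mature luminal cells at 106 and 160 against 87.4 and 87.1 (0.61, SE 0.25, adjusted p = 0.579). Eif4ebp3 gave 0.76 in basal cells (adjusted p = 0.524), at 2.79 and 2.83 CPM against 1.58 and 1.73, and 1.09 in mature luminal cells (adjusted p = 0.351), at 5.36 and 7.96 against 3.01 and 3.24. No pair of groups overlapped. With 2 libraries per group, however, groups without overlap were found for 22 of 51 members in basal and 17 of 51 in mature luminal cells. Overlap was not counted over all genes, so these counts cannot be read as a result about the members. No member differed in its genotype effect between LP and basal cells or between LP and mature luminal cells (0 called by edgeR and by DESeq2). Of all genes edgeR called 0% in each test. DESeq2 called 0.712% of all genes between LP and basal cells and 0% between LP and mature luminal cells. At an unadjusted p under 0.05 by edgeR stood 0 and 1 members, beside 926 and 224 of 12809 genes. The inhibitors' difference was thus not shown to be particular to LP.

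No member was called by edgeR between genotypes in basal cells at 9 weeks, beside 0.0546% of all genes. At an unadjusted p under 0.05 stood 6 members, beside 1164 of 12809 genes, and DESeq2 called 2 members higher, beside 1.46% of all genes. In mature luminal cells edgeR called 0 members, beside 0.133% of all genes. At an unadjusted p under 0.05 stood 4 members, beside 916 of 12809 genes, and DESeq2 called none, beside 1.52% of all genes. The smallest p-values in basal cells after Eif4ebp1 belonged to Eif6 (0.65, adjusted p = 0.358), Eif1ad (0.64, adjusted p = 0.376) and Eif2ak3 (-0.74, adjusted p = 0.403), and in mature luminal cells after Eif4ebp3 to Eif3j (0.60, adjusted p = 0.494) and Eif5b (0.73, adjusted p = 0.499), which places the large subunit. In LP, Eif4g3 (-0.40, adjusted p = 0.11), Eif4e2 (0.37, adjusted p = 0.138) and Eif4a2 (-0.49, adjusted p = 0.15) came next. None of the 13 eIF3 subunits, 5 eIF2B subunits or 4 kinases was called in any 9-week genotype comparison. Of the surrounding genes, LP of Cdkn1b-/- rats had higher Nck1 (1.03, SE 0.19, adjusted p = 0.0113), whose product helps to keep eIF2 unphosphorylated, and lower Ddit3 (-0.96, SE 0.20, adjusted p = 0.0204), 2 of 8 genes of that arm, and no gene of the mTORC1, elongation or cap and tail lists was called.

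At 4 weeks no member was called between genotypes in basal or luminal cells by edgeR or DESeq2, and 0% of all genes passed in either by edgeR. No member had an unadjusted p under 0.05, beside 310 genes in basal and 435 in luminal cells of 12082. The smallest p-values belonged to Eif6 in basal cells (log2 fold change 0.83, adjusted p = 1) and Eif3h in luminal cells (0.61, adjusted p = 0.854). At 6 weeks again 0 members and 0% of all genes passed in either cell type by edgeR. At an unadjusted p under 0.05 stood 10 members in basal and 9 in luminal cells, beside 1072 and 1961 of 11921 genes. DESeq2 called 6 lower in basal cells, beside 3.09% of all genes, and 4 (1 higher and 3 lower) in luminal cells, beside 12.5%. The smallest p-values were again those of Eif4ebp1, here lower in Cdkn1b-/- libraries. In basal cells the fold changes were -2.62 for Eif4ebp1 (SE 0.45, adjusted p = 0.164), -2.41 for Eif1ad (adjusted p = 0.175) and -2.56 for Eif2b3 (adjusted p = 0.265), and in luminal cells -2.40 for Eif4ebp1 (SE 0.47, adjusted p = 0.124), -1.62 for Eif1ad (adjusted p = 0.154) and -1.34 for Eif5 (adjusted p = 0.18). Fitting 4 and 6 weeks together called 4 lower in basal cells, beside 1.73% of all genes, and 4 (1 higher and 3 lower) in luminal cells, beside 8.77%. Without the 2 libraries of lowest rank correlation 3 were called lower in basal cells, among them Eif4ebp1 (-2.38, adjusted p = 0.0439), beside 1.1% of all genes, and none in luminal cells, beside 0.233%, and without Cdkn1b-/- luminal library 1 the luminal count was 10.

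Of the 20 comparisons, the members' median stood furthest from that of all genes with age. In Cdkn1b+/+ basal cells 13 members were higher and 1 lower at 6 than at 4 weeks, 27.5% of members beside 10.5% of all genes. Of the members, 39 of 51 had a positive log2 fold change with a median of 0.63, where the median of all genes was 0. RLE scaling shifted the median of all genes to -0.17 and that of members to 0.49, so that members stood about as far above the median gene under either scaling. With it 36 members were positive and 10 were called (9 higher and 1 lower), beside 11% of all genes. The members took between 1.92% and 2.18% of the gene counts in the 6-week Cdkn1b+/+ basal libraries and 1.26% to 1.52% at 4 weeks. The animals of the 2 ages were separate sets of libraries, and age cannot be told apart from whatever else differed between the sets. The genotype contrast of 6-week basal cells came next, with a median of -0.45 in members and 0.075 in all genes. In it 13 of 51 members were positive, and it uses the same Cdkn1b+/+ basal libraries of 6 weeks.

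Eif4ebp1 was at 62.1, 66.6 and 56.1 CPM at 4 weeks and 346, 578 and 794 at 6 weeks in Cdkn1b+/+ basal libraries, and the ages stood far apart (log2 fold change 3.22, SE 0.49, adjusted p = 0.000991). Eif1ad went from 38.0, 44.2 and 45.2 CPM to 258, 385 and 551 (3.23, SE 0.41, adjusted p = 0.000414). Eif2b3 went from 32.2, 29.2 and 34.0 CPM to 137, 187 and 278 (2.66, SE 0.39, adjusted p = 0.000972). In all 3 genes the library labelled Cdkn1b+/+ basal 3, which stood apart, was the highest of its group, and without it and Cdkn1b-/- luminal library 2 the fold changes of Eif4ebp1 and Eif1ad were 2.79 and 2.81, both called by edgeR with adjusted p = 0.00133 and 0.000312. Eif3d, which can itself bind the cap of some mRNAs, was at 85.6, 71.8 and 70.1 CPM at 4 weeks and 243, 196 and 255 at 6 weeks (1.61, SE 0.35, adjusted p = 0.00886). These 4 genes kept their call when any 1 of the 6 libraries was left out.

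By role, 5 of 13 eIF3 subunits were higher at 6 weeks, 12 were positive and the median was 1.13, and besides Eif3d these were Eif3a, Eif3c, Eif3g and Eif3j, with log2 fold changes between 1.10 and 1.57. Of the 6 fits that each left out a library, Eif3g kept its call in 4, Eif3a in 3, Eif3j in 1 and Eif3c in 0. Both called eIF2 subunits were higher. Eif2s1, the subunit that the kinases phosphorylate, was at 170 to 202 CPM at 4 weeks and 512 to 667 at 6 weeks (1.68, SE 0.38, adjusted p = 0.0111), and Eif2s2, the beta subunit, at 337 to 425 and 972 to 2429 (2.09, SE 0.53, adjusted p = 0.0198). The eIF2B subunit Eif2b1 (1.13, adjusted p = 0.0478), the start codon factor Eif1a (1.42, adjusted p = 0.0492) and the joining factor Eif5b (2.00, adjusted p = 0.0256) completed the higher calls. Leaving out each library kept the call in 5 of 6 fits for Eif2s1, 2 for Eif2s2, 2 for Eif5b, 1 for Eif2b1 and 0 for Eif1a. The kinases went the other way, since 0 of 4 were positive with a median of -0.67, and Eif2ak2 was at 73.9, 90.7 and 116 CPM at 4 weeks and 32.0, 34.5 and 38.0 at 6 weeks (-1.42, SE 0.39, adjusted p = 0.0276, called in 3 of 6 such fits). None of the 10 genes of eIF4F and its helpers was called. The promoter of Eif2s2 holds the core of the site read by Atf4, TGATGNAA on either strand, starting 36 bases before the start site. It was picked for printing after Eif2s2 and the Atf4 targets Asns and Trib3 were seen to be higher. A part of Atf4 was not tested, and a match of these letters is not a binding site.
Eif2s2 element, chr3:163855588-163855617, minus strand: ttccctttcgcTGATGCAAgagcctagcgc
This element stood in 2 of 47 members (Eif2s2 and Eif3g, 4.26%) and in 3.4% of all promoters, and the related CRE, TGACGTCA, in no member and in 1.59%. The GC box GGGCGG stood in 63.8% of members and 30.5% of all promoters, and CCAAT in 31.9% and 34%. No promoter sequence was matched for Eif3e, Eif3h, Eif4b, Eif4e3 and Eif4ebp1.

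**Figure D5:**
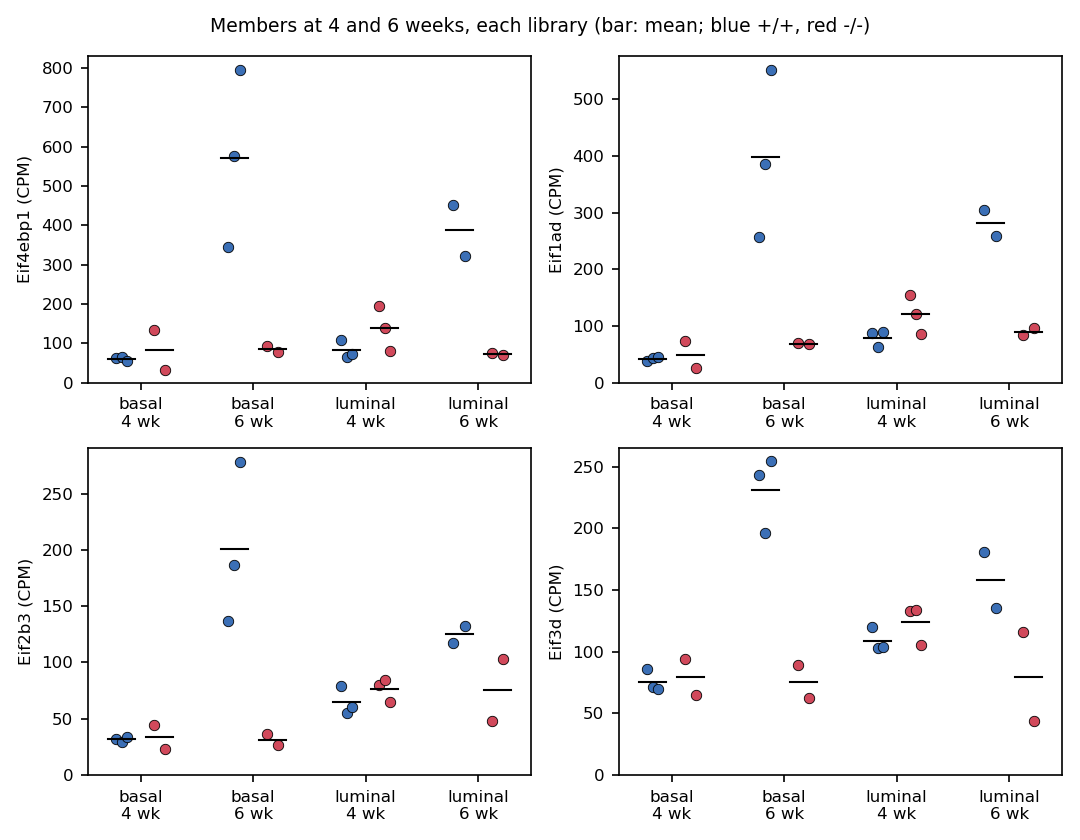
Level of Eif4ebp1, Eif1ad, Eif2b3 and Eif3d (CPM, normalised over the 4- and 6-week libraries together) in each library by cell type and age, blue for Cdkn1b+/+ and red for Cdkn1b-/-, with bars for group means. The 6-week Cdkn1b+/+ basal libraries reach 346 to 794 CPM for Eif4ebp1, and the Cdkn1b-/- basal libraries of both ages lie between 32.2 and 134.

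The number of calls depended on single libraries, with 7, 4 and 6 members called without Cdkn1b+/+ basal library 1, 2 or 3 of 4 weeks and 9 without library 3 of 6 weeks. Markers moved in the same contrast. The basal markers summed to 12320 to 12430 CPM at 4 weeks and 3883 to 5577 at 6 weeks in these libraries, with 3 of 8 called lower and none positive, 6 of 8 genes of the dissociation response (Fos, Jun and others) were lower, 1 of 8 luminal markers (Cd24) and 3 of 7 myeloid markers were higher, and their part in the members' difference was not tested. Of the genes around initiation, Asns (2.32) and Trib3 (2.87) of 8 listed for the phosphorylated eIF2 arm were higher. So were Eef1d (1.69) and Eef1e1 (1.92) of the 7 genes listed by their Eef symbols, and Denr (1.56) and Etf1 (1.00) of 11 in the mixed list of partners. Pdcd4 (-1.60) of 11 listed around the mTORC1 arm was lower.

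In Cdkn1b+/+ luminal cells 2 members were higher at 6 than at 4 weeks, 3.92% of members beside 3.1% of all genes. Eif4ebp1 was at 109.5, 65.4 and 72.9 CPM at 4 weeks and 453 and 323 at 6 weeks (2.23, SE 0.50, adjusted p = 0.0235), and Eif1ad at 87.2, 63.1 and 89.0 against 304 and 258 (1.82, SE 0.41, adjusted p = 0.0251). The ages did not overlap for either, as was found for 27 of 51 members, a share not counted over all genes. Omitting Cdkn1b+/+ luminal library 2 or 3 of 4 weeks or 1 of 6 weeks left no call, omitting library 1 of 4 weeks left 1, and omitting the 2 libraries of lowest rank correlation gave 8 (7 higher and 1 lower), beside 15.7% of all genes. In the same contrast the dissociation response genes summed to 26900 to 37750 CPM at 4 weeks and 9847 to 10370 at 6 weeks, with 2 of 8 called lower, and the myeloid markers to 599.8 to 899.5 and 139 to 234, with none of 7 called, and their part in the members' difference was not tested.

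In Cdkn1b-/- libraries edgeR called no member between the ages in either cell type, beside 0% of all genes in basal cells and 0.318% in luminal cells. Eif4ebp1 was at 134 and 32.2 CPM at 4 weeks and 94.3 and 77.6 at 6 weeks in Cdkn1b-/- basal libraries, and at 195, 139 and 81.3 against 74.9 and 70.2 in luminal libraries. Eif1ad was at 73.0 and 26.6 against 69.8 and 67.8 CPM in basal libraries. At an unadjusted p under 0.05 by edgeR, 13 members and 1124 of 12572 genes differed in their genotype effect between 6 and 4 weeks in basal cells. DESeq2 called 3 of these differences lower, beside 1.64% of all genes. The edgeR test of the difference itself, the genotype effect at 6 weeks minus that at 4 weeks, called 0 members in basal cells beside 0.0398% of all genes, with Eif4ebp1 at -3.16 (SE 0.73, adjusted p = 0.176). In luminal cells it called Eif4ebp1 alone (-3.16, SE 0.73, adjusted p = 0.0401), 1.96% of members beside 1.21% of all genes. Markers of other cells also separated the luminal genotypes at 6 weeks without overlap, at 106 to 8979 CPM in Cdkn1b-/- against 4.95 to 5.62 in Cdkn1b+/+ libraries for adipocytes, 147 to 1817 against 0.286 to 6.81 for endothelium, 101 to 3872 against 15.6 to 34.0 for fibroblasts and 711 to 1710 against 139 to 234 for myeloid cells, and their part in the difference was not tested. That call was kept in 4 of 10 fits that each left out 1 library, with adjusted p from 0.0163 to 0.202. No member passed without Cdkn1b+/+ luminal library 2 or 3 or Cdkn1b-/- luminal library 1 or 2 of 4 weeks, or without Cdkn1b+/+ luminal library 1 or Cdkn1b-/- luminal library 2 of 6 weeks, while 9 passed without Cdkn1b-/- luminal library 1 of 6 weeks and 2 without Cdkn1b+/+ luminal library 2. Without the 2 libraries of lowest rank correlation Eif4ebp1 gave -3.14 (adjusted p = 0.0593). In basal cells 2 members passed without Cdkn1b-/- basal library 2 of 4 weeks. These contrasts and the genotype contrast of 6 weeks share the Cdkn1b+/+ libraries of 6 weeks, so a value that was high in those libraries enters all of them.

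Between 9 and 6 weeks the genotype effect in basal cells, which pointed opposite ways for Eif4ebp1, differed by 3.67 (SE 0.75, adjusted p = 0.0862) for this gene and by 3.01 (adjusted p = 0.0975) for Eif1ad. No member passed by edgeR, beside 0.072% of all genes. At an unadjusted p under 0.05 stood 7 members, beside 1500 of 12500 genes, and DESeq2 called 3 members, beside 3.39% of all genes. Without Cdkn1b+/+ basal library 2 or 3 of 6 weeks 1 member passed, and without the 2 libraries of lowest rank correlation the difference for Eif4ebp1 was 3.42 (adjusted p = 0.0407). Between 9 and 4 weeks in Cdkn1b+/+ basal cells 1 member was called, 1.96% beside 1.5% of all genes. This was Eif5, at 443, 542 and 711 CPM at 4 weeks and 175 and 131 at 9 weeks (-1.89, SE 0.37, adjusted p = 0.0264), which stood at 701, 943 and 1088 CPM at 6 weeks. The call was lost in each of the 5 fits that left out 1 library. Age cannot be told apart from whatever else differed between the 4-week and 9-week sets of libraries. Eif5 has 11 named copies in the rat annotation, and 26 members have 78 such copies between them, so that reads of these members could be lost or shared where a copy is nearly identical.

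E2 treatment and strain gave no called member by edgeR. For E2 against control, 0 members passed in basal cells and 0 of 52 in luminal cells, beside 0% of all genes in each. In basal cells no member had an unadjusted p under 0.05, beside 178 of 12265 genes, and DESeq2 called none, beside 0.856% of all genes. In luminal cells 2 members had one, beside 437 of 12670 genes, and DESeq2 called 1 lower, beside 1.03% of all genes. Eif1ad was at 201 and 253 CPM in ACI control luminal libraries and 148 in the BN control, against 41.2, 56.4 and 73.4 after E2, without overlap (log2 fold change -1.81, SE 0.46, adjusted p = 0.999). Luminal groups without overlap were found for 9 of 52 members, a share not counted over all genes. Eif4a2 was at 1112, 996.9 and 771 CPM against 370, 301 and 493 (-1.32, SE 0.42, adjusted p = 0.999). In basal cells the smallest p-values belonged to Eif1b (1.00, 69.5 to 89.0 CPM after E2 against 25.7 to 59.8) and Eif3m (0.80), both with an adjusted p of 1. For ACI against BN, 0 members and 0% of all genes passed in either cell type by edgeR. At an unadjusted p under 0.05 stood 1 member in basal cells (Eif3d, -1.52), beside 91 of 12265 genes, and none in luminal cells, beside 511 of 12670. DESeq2 called no member, beside 0.212% and 3.49% of all genes. With 1 or 2 samples per strain and treatment the design could show only large differences. The dissociation response genes summed to 49740 to 143000 CPM in control libraries and 15800 to 53510 after E2, and their part in any difference was not tested.

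The remaining members passed in no comparison. Eif1, Eif1b, Eif2ak1, Eif2b4, Eif2b5, Eif2s3x, Eif3b, Eif3e, Eif3h, Eif3l, Eif3m, Eif4a1, Eif4b, Eif4e, Eif4h and Eif5a were tested in all 20 comparisons and called in none, although with the replicate block several of them passed between populations (for example Eif2b5 between basal and mature luminal cells, -0.41, adjusted p = 0.00564). They include the canonical cap-binding protein, its main helicase and the main eIF5A gene, whose relatives Eif4e3, Eif4a2 and Eif5a2 were called between populations. Eif2s3y, the Y-linked copy of an eIF2 subunit, passed the filter only in fits of the E2 experiment and was called in none.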

How the data were processed

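RNA from sorted cells was sequenced from low-input SMARTer libraries as single-end reads. According to the methods and the submitters' processing notes, the authors aligned reads to rn6 with STAR 2.5.1b and counted them on refGene genes with htseq-count, and the deposited values are raw counts per gene. Between 47.1% and 77.0% of each library's reads had no unique gene and were left out.

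Members were read from fits over all genes with edgeR 4.0.16 in R 4.3.3 (filterByExpr by group, TMM, quasi-likelihood test, Benjamini-Hochberg adjustment over all genes tested, threshold 0.05). CPM were scaled by TMM. The 9-week fit had 6 groups (genotype by population), the 4-week and 6-week fits 4 each, ages were compared in joint fits, and E2 and strain with each other as term. No duplicate library was found in 28 pairs. Scripts were tested on simulated data.

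Members, lists and tests were chosen with earlier results of these data known. The rule named up to 5 called members per direction by p (values only for up to 3 where fewer than 3 passed), with per-library values for members called in 2 or more comparisons or between genotypes, and other members are named after their values were seen. At 9 weeks the residuals of libraries with the same genotype and number correlated (r from 0.261 to 0.803 over 24 pairs), so genotype and number formed the block between populations. Libraries of different genotype that shared a number did not correlate in this way (-0.365 to 0.0014). Number alone was a block in the genotype contrasts only as an alternative. At 4 and 6 weeks and in the E2 experiment the titles name the animal shared by a basal and a luminal library (r from 0.109 to 0.615, -0.00598 to 0.0857 and -0.356 to 0.297). Alternatives were RLE, no filter, at least 10 counts in every library, DESeq2 1.42.0, limma 3.58.1 voom, blocks, summed or fewer libraries, and leaving out each library. Omitting libraries of low rank correlation and the contrasts of genotype effects between ages were chosen after seeing the data. Pr ChIP-seq peaks were not analysed here, for want of an rn6 annotation. Promoters came from RefSeq, where 47 of 52 members matched by symbol.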

Additional observations from a re-analysis of the deposited data

Results flagged for a closer look

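Of 36 groups of 4 libraries in which a named member was checked for a value far from the rest, 2 held one. Chance flags about 1 in 20 groups of 4 independent values. These groups were 2 fractions of 2 numbers with correlated residuals, so that rate need not hold here. In Cdkn1b-/- LP at 9 weeks, Eif1a was at 172.2 CPM in PNA+ library 1 and between 254 and 263 in the other 3. In the same group Eif5a2 was at 5.891 CPM in Cd49b+ library 2 and between 1.46 and 2.09 in the others, which widened the spread of a gene that lay at 4.03 to 5.04 CPM in Cdkn1b+/+ LP.

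The genotype effect on Eif4ebp1 in luminal cells differed between 6 and 4 weeks by -3.164 on the log2 scale (adjusted p = 0.0401 by edgeR). The Cdkn1b+/+ luminal libraries were at 453 and 323 CPM at 6 weeks and 65.4 to 109.5 at 4 weeks, and the Cdkn1b-/- luminal libraries at 74.9 and 70.2 and at 81.3 to 195.

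Eif2s3y lies on the Y chromosome and was at 0 in 41 of 48 libraries and at 1 count in 5. It had 132 counts in the library labelled Cdkn1b+/+ basal 3 of 6 weeks, which also had the Cdkn1b level that went against its label, and 27 counts in the BN control luminal library, which pooled animals.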

How the results depend on the processing

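Counts of called members moved by more than 1.5 times as follows, with the percentage of all genes called by the same setting in brackets. With DESeq2 they were 26 for LP against mature luminal cells (30.6%). Basal against luminal cells gave 13 at 4 weeks (39.3%), 7 at 6 weeks (16.6%) and 4 in the E2 experiment (14.4%). Between genotypes there were 2 and 5 in basal cells and LP at 9 weeks (1.46% and 8.59%), and 6 and 4 in basal and luminal cells at 6 weeks (3.09% and 12.5%). There were 6 between 4 and 6 weeks in Cdkn1b+/+ luminal cells (13.7%), 7 between 4 and 9 weeks (9.13%) and 1 for E2 in luminal cells (1.03%). Differences of genotype effects between ages gave 3, 5 and 3 (6 minus 4 weeks in basal and luminal cells, 1.64% and 8.75%, and 9 minus 6 weeks in basal cells, 3.39%). DESeq2 also called more of all genes, for example 30.6% for LP against mature luminal cells. With no filter there were 0 between genotypes in LP (2.24%) and 2 for the 9 minus 6 weeks difference (0.465%). With at least 10 counts in every library there were 1 between genotypes in luminal cells at 6 weeks (1.12%), 4 between ages in Cdkn1b+/+ luminal cells (10.2%) and 2 between populations in the E2 experiment (8.87%).

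With the replicate block there were 30 for LP against mature luminal cells (45.8% of all genes). Basal against luminal cells gave 18 at 4 weeks (43%), 1 at 6 weeks (4.66%) and 0 in the E2 experiment (2.2%). With limma voom and a random replicate block (0.656%), or with LP libraries summed (0.0392%), there were 0 between genotypes in LP. No other count moved by over 1.5 times with a block. In Cdkn1b+/+ libraries alone there were 9 and 11 for basal and LP against mature luminal cells (20.9% and 11% of all genes) and 3 at 4 weeks (23.5%). In Cdkn1b-/- libraries there were 0 for LP (0%). With 4 and 6 weeks in one fit there were 4 between genotypes in each cell type at 6 weeks (1.73% in basal and 8.77% in luminal cells). With the compared libraries alone there were 5 between 4 and 6 weeks in luminal cells (13.7%) and 5 between 4 and 9 weeks (12.9%).

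Without the libraries of lowest rank correlation, chosen after seeing the data, there were 5 between populations at 6 weeks and 2 in the E2 experiment, 3 between genotypes in basal cells at 6 weeks, 8 between ages in luminal cells, and 1, 0 and 1 for the differences of genotype effects. Leaving out each library in turn gave 9 to 21 for LP against mature luminal cells, 4 to 12, 0 to 5 and 0 to 2 for basal against luminal cells at 4 weeks, 6 weeks and in the E2 experiment, 0 to 3 between genotypes in LP, 0 to 10 in luminal cells at 6 weeks, 4 to 11 and 0 to 3 between 4 and 6 weeks in basal and luminal cells, 0 between 4 and 9 weeks, and 0 to 2, 0 to 9 and 0 to 1 for the differences.

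In Cdkn1b-/- libraries no member was called between 4 and 6 weeks (0 in basal and 0 in luminal cells), and log2 fold changes changed sign for Eif2b1 (-0.182), Eif2b3 (-0.097), Eif2s1 (-0.065), Eif2s2 (-0.249), Eif3d (-0.075), Eif3g (-0.122) and Eif5b (-0.462) in basal cells and Eif1ad (-0.419) and Eif4ebp1 (-0.932) in luminal cells. Elsewhere 246 counts stayed within 1.5 times of the reported count. For single members 400 values kept sign and side of the threshold, 79 lost the call and 11 gained it. The cause of these changes was not tested. For fits that left out libraries, the percentage of all genes called is given for some only, so those counts are not read against all genes. Groups of 1 to 3 libraries and depths down to 7985619 counts limit what 6-week and E2 contrasts can show, and a left-out library of a group of 2 leaves a lone sample that is assumed to vary like the others.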
